A study of Mus musculus with 4 samples.

Results

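Genes listed as Notch targets were examined in mouse blood monocytes that lack RBP-J, the DNA-binding factor through which Notch receptors act on transcription. A place in the list does not show that a gene responds to Notch in these cells. The members were taken by name as the rows of the deposited gene expression table for *Hes1*, *Hes6*, *Hey1*, *Nrarp*, *Dtx2*, *Dtx3*, *Dtx4* and *Myc*, which gave 8 of 23995 gene symbols. RNA-seq had been performed on Ly6Clo and Ly6Chi monocytes sorted from the blood of adult mice, with 1 library for each subset and genotype and 4 libraries in all. The RBP-J-deficient animals were labelled RBP-Jfl/fl Lyz2-Cre, and the methods give them as Rbpj fl/fl Lyz2 cre/cre. The control libraries were titled WT, carry the genotype label Lyz2-Cre, and are Rbpj+/+ Lyz2 cre/cre in the methods. Both genotypes therefore carry Cre in the *Lyz2* locus, which is active in monocytes, macrophages and neutrophils and not in monocytes alone. The number of mice behind each library and any pooling are not given in the sources used here. With 1 library per group no difference has a replicate check, no test was made, and every value below describes these libraries.

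When a Notch ligand binds its receptor, proteases release the intracellular part of the receptor, which enters the nucleus and joins RBP-J and a Mastermind coactivator on target genes. Without that signal, RBP-J recruits corepressors, so loss of RBP-J can remove activation from some targets and repression from others. *Hes1* and *Hey1* encode transcriptional repressors of the basic helix-loop-helix class, and *Hes6* encodes a relative that can oppose HES1. *Nrarp* encodes an ankyrin repeat protein that limits Notch signalling by promoting the loss of the intracellular domain. *Dtx2*, *Dtx3* and *Dtx4* encode Deltex ubiquitin ligases, a family that acts on Notch trafficking. *Myc* encodes a growth-promoting transcription factor and is a direct Notch target in T cell leukaemia. Notch signalling through NOTCH2 is known for its part in the formation of Ly6Clo monocytes.

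On the mm10 build, *Hes1* lies at chr16:30065357-30067796, *Hes6* at chr1:91411483-91413222, *Hey1* at chr3:8663359-8667038 and *Nrarp* at chr2:25180758-25183332. *Dtx2* lies at chr5:135994800-136032881, *Dtx3* at chr10:127190378-127211622, *Dtx4* at chr19:12466336-12501996 and *Myc* at chr15:61985341-61990361. These spans are whole genes, exons and introns together, and each value below sums over a gene's transcripts.

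A RefSeq promoter window on GRCm38.p6 was found for 3 of the 8 members, *Nrarp*, *Dtx2* and *Hes6*. These are shown because no window was found for the other members, *Hes1* among them, and not for their expression. All 3 had lower values in RBP-J-deficient Ly6Clo monocytes. The 250 bases before each start site are printed 5′ to 3′ in the direction of the gene, and no annotated exon overlaps them. The letters searched on both strands were GTGGGAA and its core TGGGAA, which RBP-J recognises, CACGTG, the E-box, and CACGCG and CACNAG, which HES proteins recognise. Capitals mark every match.
Nrarp, chr2:25180508-25180757, plus strand: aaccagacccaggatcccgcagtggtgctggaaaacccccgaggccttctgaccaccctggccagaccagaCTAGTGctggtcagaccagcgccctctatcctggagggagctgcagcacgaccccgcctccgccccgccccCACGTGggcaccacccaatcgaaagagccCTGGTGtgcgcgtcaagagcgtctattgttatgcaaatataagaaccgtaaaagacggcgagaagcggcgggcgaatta
Dtx2, chr5:135994550-135994799, plus strand: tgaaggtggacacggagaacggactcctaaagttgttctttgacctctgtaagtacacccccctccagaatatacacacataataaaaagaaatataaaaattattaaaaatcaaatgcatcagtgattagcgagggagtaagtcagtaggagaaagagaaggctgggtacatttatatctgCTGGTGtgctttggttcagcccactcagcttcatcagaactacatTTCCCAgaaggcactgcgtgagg
Hes6, chr1:91413223-91413472, minus strand: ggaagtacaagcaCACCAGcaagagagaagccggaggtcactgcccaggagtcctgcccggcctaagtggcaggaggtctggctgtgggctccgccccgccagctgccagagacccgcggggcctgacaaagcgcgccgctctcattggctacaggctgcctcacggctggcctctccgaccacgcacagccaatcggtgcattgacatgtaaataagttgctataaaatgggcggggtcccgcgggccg
Counted from the start site, the *Dtx2* stretch held the RBP-J core on the opposite strand at bases -23 to -18, and CACNAG on that strand at -68 to -63. The *Nrarp* stretch held the E-box at -108 to -103 and CACNAG on the opposite strand at -179 to -174 and at -79 to -74. The *Hes6* stretch held CACNAG at -237 to -232, and none of these letters occurred upstream of a second *Hes6* start site in the table. Of 32851 promoter windows, the same upstream stretch held GTGGGAA in 5.42%, TGGGAA in 21.6%, CACGTG in 6.02%, CACGCG in 7.62% and CACNAG in 36.7%. The TGGGAA count includes every GTGGGAA, and no matches overlapped in these 3 stretches. A match describes letters and not a bound site, and the lack of a match says only that the letters are not in this window.

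The authors deposited expression as FPKM, fragments scaled to transcript length in kilobases and to the mapped fragments of the library, a level that can be compared between genes because it is set per length. A gene was called expressed when its FPKM was at least 1 in at least 1 of the 4 libraries, which held for 10240 genes and for 7 of the 8 members, all but *Hey1*. In single libraries, 8985 to 9394 genes reached that level. The depth is unknown, since no read counts were used. A rough guide to the smallest signal was taken as the percentile 2 of FPKM times length in kilobases, over nonzero genes with a single transcript, and came to 0.0430 to 0.0556. Differences are log2 ratios of (FPKM + 1), which understate the change of genes with low values. *Actb*, used by every cell, had a failed estimate and stood at 0 in the pair of RBP-J-deficient libraries, so a gene listed at 0 was not taken as absent. No member had a failed estimate.

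The targeted gene itself had lower values in both RBP-J-deficient libraries. In Ly6Clo monocytes *Rbpj* stood at 8.30 FPKM in the control and 2.43 in the deficient library (log2 ratio -1.44). In Ly6Chi monocytes the levels were 14.4 and 2.85 (log2 ratio -2.00). The gene-level value also counts exons outside the deleted part, and the annotation holds processed copies of *Rbpj*, so the residual level is not a measure of undeleted cells.

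*Hes1* was by far the highest of the members in control Ly6Clo monocytes and was low in both RBP-J-deficient libraries. Its FPKM was 238 in control Ly6Clo, 11.7 in RBP-J-deficient Ly6Clo, 40.5 in control Ly6Chi and 14.1 in RBP-J-deficient Ly6Chi monocytes. The level was thus 20.4-fold lower in RBP-J-deficient than in control Ly6Clo monocytes, a log2 ratio of -4.24. In Ly6Chi monocytes it was 2.87-fold lower, a log2 ratio of -1.46. Among 9932 expressed genes with values above 0 in all 4 libraries and no failed estimate, *Hes1* had the 2nd lowest ratio in Ly6Clo monocytes, after *H2-L*, and the 100th lowest in Ly6Chi monocytes. In control mice *Hes1* was 5.89-fold higher in Ly6Clo than in Ly6Chi monocytes, whereas in RBP-J-deficient mice the Ly6Clo level was 0.831 of the Ly6Chi level. *Hes1* made up 79.5% of the summed FPKM of the members in control Ly6Clo monocytes, and 37.4%, 38.8% and 19.9% in RBP-J-deficient Ly6Clo, control Ly6Chi and RBP-J-deficient Ly6Chi monocytes.

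*Hes6* followed another pattern, with 1 low library out of 4. Its FPKM was 45.5 in control Ly6Clo, 15.8 in RBP-J-deficient Ly6Clo, 53.2 in control Ly6Chi and 52.9 in RBP-J-deficient Ly6Chi monocytes. The level was 2.87-fold lower with RBP-J deficiency in Ly6Clo monocytes, a log2 ratio of -1.47, while the ratio in Ly6Chi monocytes was -0.01. In both Ly6Chi libraries and in RBP-J-deficient Ly6Clo monocytes *Hes6* stood above *Hes1*, and in control Ly6Clo monocytes it stood below. The longest *Hes6* transcript is 61.7% GC, the highest of the members, and across 6086 genes the Ly6Clo ratio was lower for genes of higher GC content, with a Spearman rho of -0.37 as a description across genes of the same libraries. With that trend subtracted, the *Hes6* ratio in Ly6Clo monocytes was -0.90, inside 2-fold, whereas that of *Hes1* stayed at -4.24.

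*Hey1*, the only Hey gene among the members, was at the limit of detection. It was listed at 0 in both control libraries, at an FPKM of 0.0932 in RBP-J-deficient Ly6Clo and at 0.352 in RBP-J-deficient Ly6Chi monocytes. Multiplied by length, these values were 4.06 and 17.1 times the smallest-signal guide of their libraries. No fold of FPKM is given against a value listed at 0, and the log2 ratios of (FPKM + 1), 0.13 and 0.44, depend on the pseudocount.

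*Nrarp*, the feedback inhibitor, was highest in control Ly6Clo monocytes. Its FPKM was 10.3 there, was listed at 0 in RBP-J-deficient Ly6Clo, and in Ly6Chi monocytes was 0.716 with RBP-J and 0.767 without. Within the controls *Nrarp* was 14.5-fold higher in Ly6Clo than in Ly6Chi monocytes. The log2 ratio of (FPKM + 1) with RBP-J deficiency was -3.50 in Ly6Clo and 0.04 in Ly6Chi monocytes, and the first depends on the pseudocount because one value is listed at 0. Of the 3 upstream stretches above, that of *Nrarp* holds the E-box, as do 6.02% of all such stretches. It holds no RBP-J letters, and binding was not tested.

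**Figure D1:**
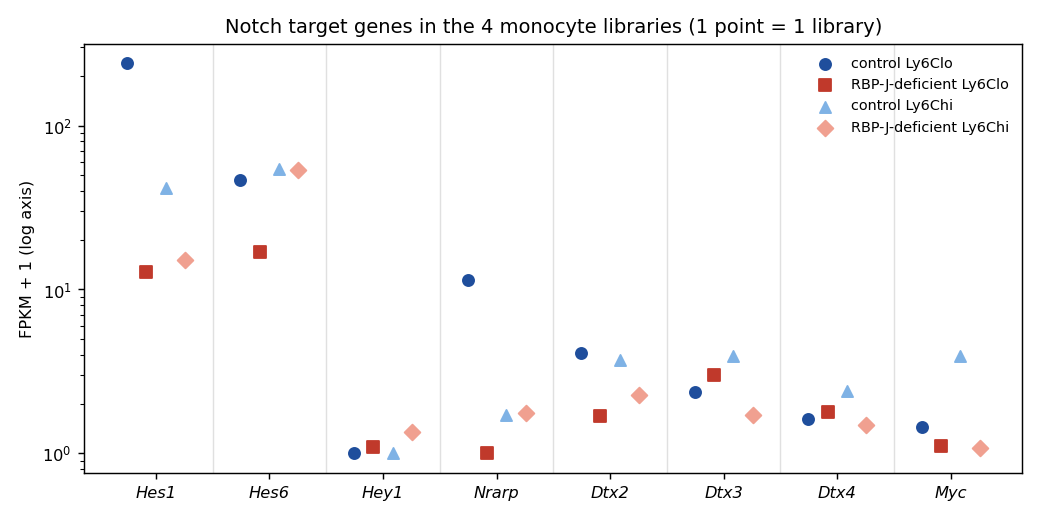
Expression of the 8 Notch target genes. The y axis is FPKM + 1 on a log axis, each symbol is 1 library, and colours give genotype and subset. *Hes1* stands at 238 FPKM in control Ly6Clo monocytes against 11.7 to 40.5 in the other libraries, and *Nrarp* at 10.3 against 0 to 0.767.

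Among the Deltex ligases, *Dtx2* had lower values in both RBP-J-deficient libraries. In Ly6Clo monocytes its level was 3.11 FPKM with RBP-J and 0.693 without, 4.50-fold lower with a log2 ratio of -1.28. In Ly6Chi monocytes the levels were 2.72 and 1.28 FPKM, 2.13-fold lower with a log2 ratio of -0.71. Its control libraries were thus close together. Of the 3 members whose promoter was searched *Dtx2* alone held the RBP-J core letters, which 21.6% of all upstream stretches hold, and binding was not tested.

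*Dtx3* differed by genotype in the other subset. In Ly6Clo monocytes its level was 1.39 FPKM with RBP-J and 2.03 without, and in Ly6Chi monocytes 2.94 with RBP-J and 0.705 without. The log2 ratios were 0.34 in Ly6Clo and -1.21 in Ly6Chi monocytes. *Dtx4* had a like order at lower levels, with an FPKM of 0.618 and 0.782 in control and RBP-J-deficient Ly6Clo monocytes and of 1.42 and 0.494 in the Ly6Chi pair. Its log2 ratios were 0.14 and -0.69. All 3 Deltex genes stayed at or below an FPKM of 3.11, so each of these values rests on a small signal of unknown count.

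*Myc* was detected above an FPKM of 1 in control Ly6Chi monocytes alone. Its FPKM was 0.442 in control Ly6Clo, 0.111 in RBP-J-deficient Ly6Clo, 2.90 in control Ly6Chi and 0.0744 in RBP-J-deficient Ly6Chi monocytes. The log2 ratio with RBP-J deficiency was -0.38 in Ly6Clo and -1.86 in Ly6Chi monocytes. In RBP-J-deficient cells the values, times length, were 4.65 and 3.48 times the smallest-signal guide. At such levels the ratio in Ly6Chi monocytes depends on the pseudocount, with -4.11 at 0.1 and -0.64 at 5.

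The order of the levels differed between the libraries. In control Ly6Clo monocytes it ran *Hes1*, *Hes6*, *Nrarp*, *Dtx2*, *Dtx3*, *Dtx4*, *Myc* and *Hey1*, and in control Ly6Chi monocytes *Hes6*, *Hes1*, *Dtx3*, *Myc*, *Dtx2*, *Dtx4*, *Nrarp* and *Hey1*. In RBP-J-deficient Ly6Clo monocytes the order was *Hes6*, *Hes1*, *Dtx3*, *Dtx4*, *Dtx2*, *Myc*, *Hey1* and *Nrarp*, and in RBP-J-deficient Ly6Chi monocytes *Hes6*, *Hes1*, *Dtx2*, *Nrarp*, *Dtx3*, *Dtx4*, *Hey1* and *Myc*. Without replicates, no neighbours in these orders can be said to differ. The summed FPKM of the members was 299.6 in control Ly6Clo, 31.2 in RBP-J-deficient Ly6Clo, 104 in control Ly6Chi and 70.7 in RBP-J-deficient Ly6Chi monocytes, so the lowest sum belonged to RBP-J-deficient Ly6Clo cells. As these are bulk samples, fewer cells of a type and less RNA per cell cannot be told apart.

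Differences were counted at 2 sizes, the study's thresholds of at most 0.2-fold or at least 5.7-fold on (FPKM + 1), without its p-value, and 2-fold. In Ly6Clo monocytes 2 of the 8 members, *Hes1* and *Nrarp*, were at or under 0.2-fold, against 0.674% of all expressed genes. None was at or above 5.7-fold, against 0.273%. At 2-fold, 4 of the 8 were lower (*Hes1*, *Hes6*, *Nrarp* and *Dtx2*), against 11.1%, and none was higher, against 8.97%.

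Fewer genes passed these sizes in Ly6Chi monocytes. None of the 8 was at or under 0.2-fold, against 0.156% of expressed genes, and none was at or above 5.7-fold, also against 0.156%. At 2-fold, 3 were lower (*Hes1*, *Dtx3* and *Myc*), against 4.56%, and none was higher, against 2.64%. On the (FPKM + 1) scale *Hes1* was the one member at least 2-fold lower in both subsets. The share of all expressed genes lower in both was not counted, so the overlap of members is a description. The median ratio of the 7 expressed members was -1.28 in Ly6Clo and -0.71 in Ly6Chi monocytes, beside 0.02 and 0.00 for all expressed genes.

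**Figure D2:**
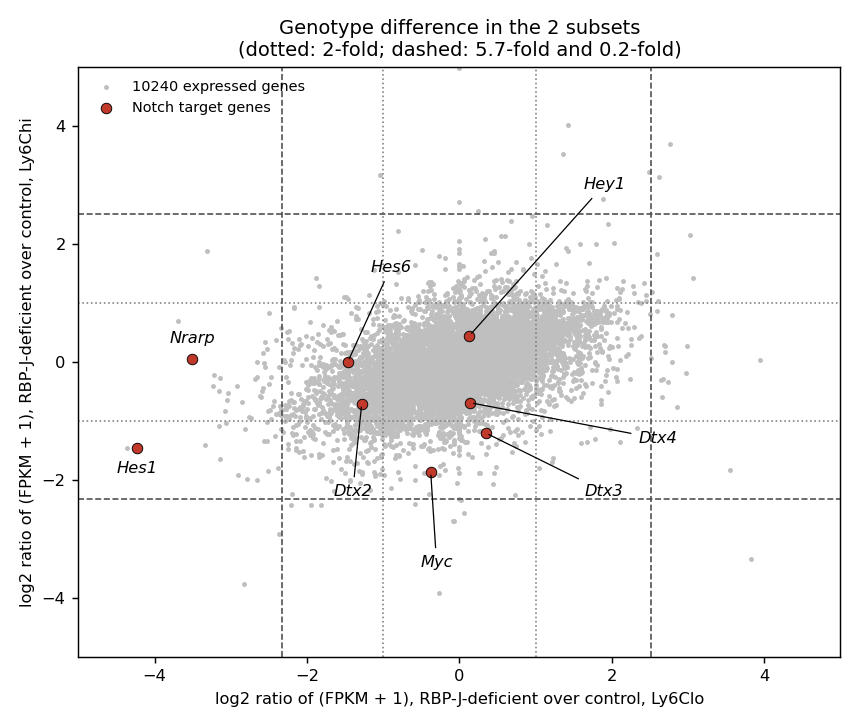
Genotype difference, as the log2 ratio of (FPKM + 1) in deficient over control cells, in Ly6Clo (x axis) and Ly6Chi monocytes (y axis). Grey points are the 10240 expressed genes, of which 15 lie outside the plotted range of -5 to 5, and red points are the members. *Hes1* at -4.24 and *Nrarp* at -3.50 lie to the left of the 0.2-fold line, and no member lies beyond 2-fold on the higher side.

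The subset comparisons share libraries with the genotype comparisons, so their values are given side by side and not as separate evidence. In control mice 2 of the 8 members, *Hes1* and *Nrarp*, were at least 2-fold higher in Ly6Clo than in Ly6Chi monocytes, against 5.21% of expressed genes. Lower at 2-fold was *Myc* alone, against 7.75%, with a log2 ratio of -1.44. In RBP-J-deficient mice none was 2-fold higher in Ly6Clo monocytes, against 8.41%, and *Hes6* was lower at a log2 ratio of -1.68, against 10.6% of expressed genes. Between the subsets, Ly6Clo over Ly6Chi, the log2 ratio of *Hes1* was 2.53 with RBP-J and -0.25 without. For *Nrarp* it was 2.73 and -0.82.

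The RBP-J-deficient Ly6Clo library also differed from its control in the genes that define the subsets. Summed over 8 Ly6Chi markers, FPKM was 604 with RBP-J and 1510 without in Ly6Clo monocytes, and 5748 and 5322 in the Ly6Chi pair. Summed over 11 Ly6Clo markers, it was 4026 and 2975, and 747 and 1232. In Ly6Clo monocytes 6 of the 8 Ly6Chi markers were at least 2-fold higher with RBP-J deficiency, against 8.97% of expressed genes. Among them was *Ccr2*, from 59.2 to 474. Of the 11 Ly6Clo markers 5 were at least 2-fold lower, against 11.1%, among them *Nr4a1*, from 618 to 65.6. For *Nr4a1* the paper reports similar levels in Ly6Clo monocytes of both genotypes by flow cytometry and qPCR, unlike this pair of libraries. No marker of either list was listed at 0, and *Ly6c2* was 10.9 and 78.3 in the Ly6Clo pair against 2013 and 1594 in the Ly6Chi pair, in the order of the labels. The part of these differences in the members' values was not tested. In RBP-J-deficient Ly6Clo monocytes 5 of the 8 members (*Hes1*, *Hes6*, *Nrarp*, *Dtx2* and *Myc*) lay below both control libraries, against 38.4% of expressed genes, and *Hey1* lay above both, against 40.3%. In RBP-J-deficient Ly6Chi monocytes *Hes1*, *Dtx2*, *Dtx3*, *Dtx4* and *Myc* lay below both controls, against 32.8%, and *Hey1* above both, against 32.5%. These shares were counted after the values were seen. *Hes1*, *Dtx2* and *Myc* are the members below both controls in each subset, and the share of all expressed genes with that pattern was not counted.

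Markers of other cells moved between the libraries too, and their part in the members' values was not tested. Over 5 erythroid markers summed FPKM was 1583 in control Ly6Clo, 276 in RBP-J-deficient Ly6Clo, 360 in control Ly6Chi and 387 in RBP-J-deficient Ly6Chi monocytes. Over 11 B cell markers it was 73.3, 104, 27.6 and 49.4 in the same order, with 1, 3, 3 and 1 of them at 0. Of the 6 expressed B cell markers, 4 were at least 2-fold lower and 1 was higher with RBP-J deficiency in Ly6Clo monocytes. The shares of all expressed genes were 11.1% and 8.97%. The median log2 ratio of these markers was -1.55, so most differed in the direction of *Hes1*. Their sum, led by *Cd79b* at 41.9 and 100.2, did not. Sums over 9 T cell markers were 0.866 to 4.58 and over 7 NK cell markers 0.182 to 3.41. The sum over 9 neutrophil markers was 240 and 170 in the Ly6Clo pair and 1525 and 1200 in the Ly6Chi pair, that over 6 platelet markers 128, 126, 361 and 299.6, and that over 7 dendritic cell markers 194, 238, 472 and 418.

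Around these targets, the pathway upstream of RBP-J did not share their pattern. *Notch2*, the receptor of the highest level here, stood at 126 FPKM with RBP-J and 732 without in Ly6Clo monocytes, and at 70.3 and 161 in the Ly6Chi pair. Its log2 ratios were 2.53 and 1.18, so the receptor was higher in the same libraries in which *Hes1* was lower. *Notch1* stayed between 0.380 and 2.67, with ratios of 0.18 and -0.23. Of 5 ligands *Jag1* alone was expressed, with 5.64 and 20.7 in the Ly6Clo pair (log2 ratio 1.70) and 0.555 and 1.07 in the Ly6Chi pair, and the other 4 were listed at 0 in all libraries.

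Genes that process the receptor were spread in both directions. Of 13 expressed, 4 were at least 2-fold lower and 1 was higher in RBP-J-deficient Ly6Clo monocytes. Among all expressed genes 11.1% were lower and 8.97% higher. The median log2 ratio of the list was -0.52, beside 0.02 for all expressed genes. It was -0.29 with the GC trend subtracted and -0.19 with a pseudocount of 5, beside -0.04 and 0.01. *Ncstn*, of the gamma-secretase that releases the intracellular domain, had a ratio of -1.46, and *Psenen*, the highest of the list, had 0.96. The Fringe glycosyltransferases *Lfng* and *Mfng*, which tune ligand choice, had -1.31 and -1.34. *Adam10*, which makes the ligand-induced cut, had 1.64. In Ly6Chi monocytes *Lfng* was lower at -1.16 and *Furin*, the convertase that matures the receptor, higher at 1.64, with a list median of -0.18.

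Among all expressed genes 11.1% were 2-fold lower and 8.97% higher in Ly6Clo monocytes, and 4.56% and 2.64% in Ly6Chi monocytes. Of 7 coactivators of RBP-J none passed 2-fold in Ly6Clo monocytes and *Kat2b*, an acetyltransferase, was higher at 1.15 in Ly6Chi monocytes. The medians of these coactivators were -0.36 and -0.09. *Snw1*, the highest of them, had ratios of -0.04 and -0.09. Of 12 corepressors *Cir1* was higher at 1.16 in Ly6Clo monocytes, and none passed 2-fold in Ly6Chi monocytes, with medians of 0.00 and 0.12. *Sap30*, the highest of these, had ratios of -0.07 and -0.44. Of 4 expressed Groucho genes, whose products work with HES repressors, *Tle1* passed 2-fold in Ly6Chi monocytes at 1.02, and *Aes*, the highest, had -0.98 and -0.71.

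Regulators of receptor turnover counted 8 expressed genes. In Ly6Clo monocytes 2 were lower and 1 was higher at 2-fold, against 11.1% and 8.97% of all expressed genes. None passed in Ly6Chi monocytes, against 4.56% lower and 2.64% higher. *Numb*, an inhibitor that sorts Notch for degradation, had a ratio of -1.17 and the ligase *Mib2* had -1.48. *Fbxw7*, which targets the intracellular domain for degradation, had 1.10, and *Neurl3*, the highest of the list, had -0.01.

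Of 11 further Hes, Hey, Deltex and related genes, 2 reached an FPKM of 1 in any library. *Bhlhe40*, a repressor of the same class as HES1, stood at 75.7 FPKM with RBP-J and 15.0 without in Ly6Clo monocytes, and at 15.0 and 21.6 in the Ly6Chi pair. Its log2 ratios were -2.26 and 0.50, and like *Hes1* and *Nrarp* it was higher in Ly6Clo than in Ly6Chi monocytes in the controls, by 2.27 on the log2 scale. *Dtx3l*, which is not a Notch-specific Deltex, had ratios of 0.99 and 0.41.

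Of 12 Notch target genes known from other tissues 5 were expressed, with medians of -0.44 in Ly6Clo and 0.09 in Ly6Chi monocytes. *Ptp4a3*, a phosphatase gene, had ratios of -1.47 and -1.05. *Bcl2*, a survival gene, had -1.05 and 0.62, and *Cdkn1a*, which encodes the cell cycle inhibitor p21, had 1.29 and 0.09. Of 7 genes that HES1 is known to repress, 1 was expressed. This was *Cdkn1b*, which encodes the cell cycle inhibitor p27, at 257 FPKM with RBP-J and 341 without in Ly6Clo monocytes, and at 82.8 and 177 in the Ly6Chi pair. Its log2 ratios were 0.41 and 1.09.

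The genes around *Myc* did not follow its difference in Ly6Chi monocytes as a group. Of 9 expressed MYC network partners none passed 2-fold in Ly6Clo monocytes, and in Ly6Chi monocytes *Mxd4*, which competes with MYC for MAX, was lower at -2.41. *Mlx*, the highest of these partners, had ratios of -0.55 and 0.35. Of 19 expressed MYC target genes of ribosome biogenesis and growth, 3 were lower and 1 was higher at 2-fold in Ly6Clo monocytes. The shares of all expressed genes were 11.1% and 8.97%. In Ly6Chi monocytes 1 was lower, against 4.56%, and none was higher, against 2.64%. *Srm*, *Bop1* and *Rrp9* had -1.29, -1.29 and -1.11 in Ly6Clo monocytes, *Nme1*, the highest of the list, had 1.21, and *Rrp9* had -1.69 in Ly6Chi monocytes. The list medians were 0.07 and -0.02, beside 0.02 and 0.00 for all expressed genes.

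**Figure D3:**
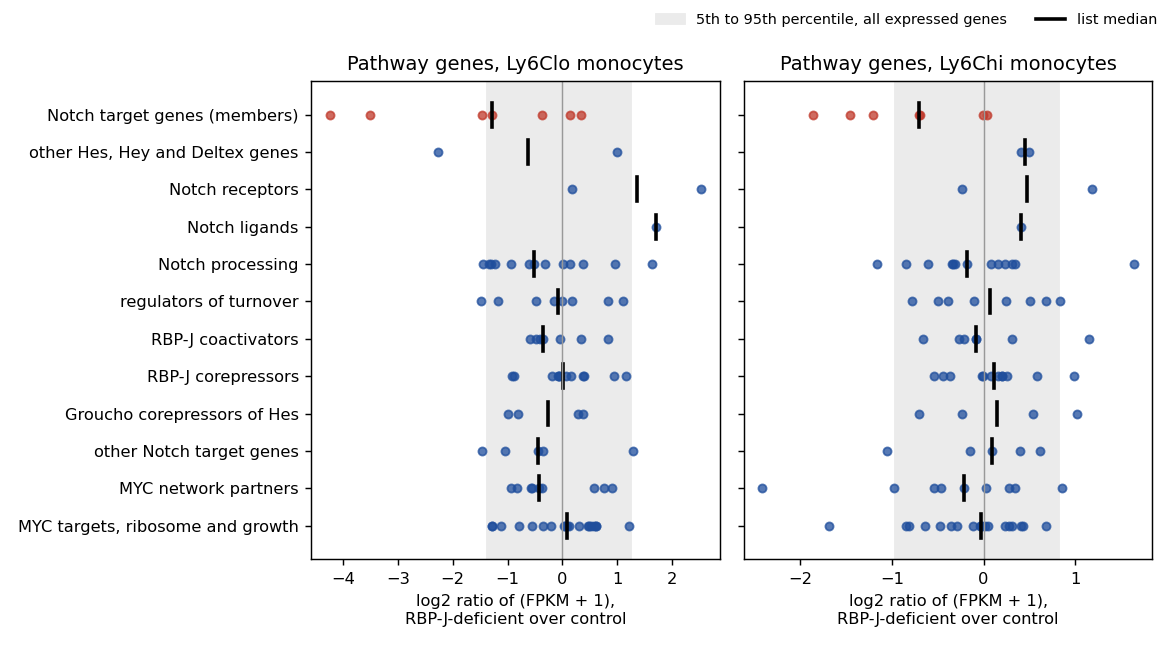
Genotype difference, as the log2 ratio of (FPKM + 1) in deficient over control cells, of each expressed gene of the lists, in Ly6Clo (left) and Ly6Chi monocytes (right). Points are genes, black bars list medians, and the grey band spans the 5th to 95th percentile of all expressed genes, -1.38 to 1.24 in Ly6Clo and -0.97 to 0.83 in Ly6Chi monocytes. The members (red) reach -4.24 on the left, and *Notch2* reaches 2.53 on the other side.

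The patterns over the 4 libraries nearest to that of *Hes1* were those of 5 genes, by Euclidean distance between log2(FPKM + 1) profiles centred on each gene's mean, among 6377 genes. They were *Havcr2* at a distance of 1.17, *Itgax* at 1.18, *Rbpms* at 1.41, *Tgfbr1* at 1.47 and *Hba-a2* at 1.56. *Havcr2*, which encodes the immune receptor TIM-3, stood at 57.4 FPKM with RBP-J and 5.19 without in Ly6Clo monocytes, and at 13.7 and 10.1 in the Ly6Chi pair. *Itgax*, which encodes CD11c, had 33.7, 3.10, 3.36 and 1.45 in the same order. *Rbpms*, which encodes an RNA-binding protein, had 113, 23.1, 38.1 and 13.9. On the (FPKM + 1) scale it was the one of the 5 that, like *Hes1*, was at least 2-fold lower in both subsets, with ratios of -2.25 and -1.39. *Itgax*, of low level in Ly6Chi monocytes, had -0.83 there on that scale, which understates the change of low values. *Tgfbr1*, a TGF-beta receptor gene, had 56.6, 10.8, 16.0 and 9.21. *Hba-a2* is a haemoglobin gene of red cells, and the erythroid markers as a list also had their highest sum in control Ly6Clo monocytes.

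**Figure D4:**
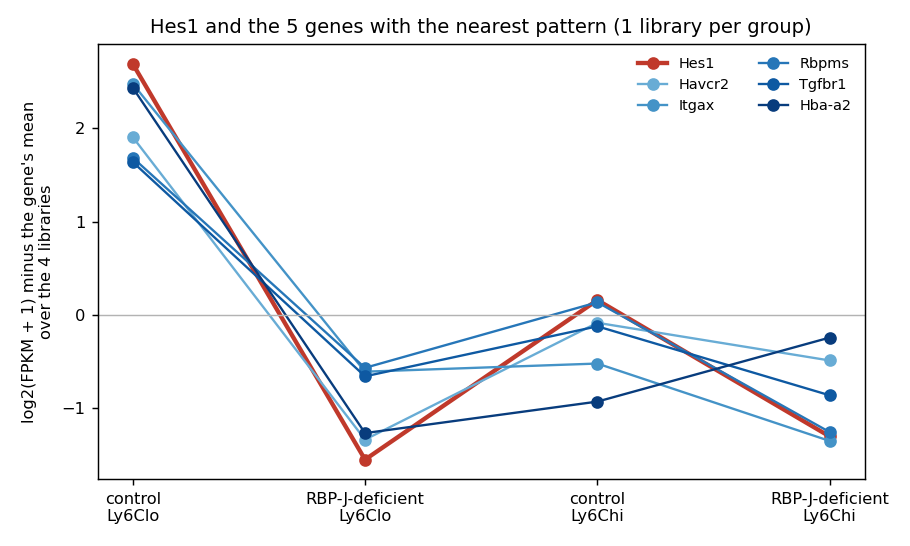
Profiles of *Hes1* (red) and the 5 nearest genes (blue). The y axis is log2(FPKM + 1) minus the gene's mean over the 4 libraries, and each point is 1 library. *Hes1* and the others peak in control Ly6Clo monocytes, and *Hba-a2* parts from *Hes1* in RBP-J-deficient Ly6Chi monocytes, where its log2 ratio to control is 0.69 against -1.46.

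The members fell into those that kept their size when the values were handled in other ways and those that did not. Over pseudocounts of 0.1 and 5, a rescaling to TPM, median centring and subtraction of the GC trend, the Ly6Clo ratio of *Hes1* ranged from -4.55 to -3.86 and its Ly6Chi ratio from -1.57 to -1.25. The Ly6Clo ratio of *Nrarp* ranged from -6.71 to -1.62, under -1 throughout. The ratios of *Dtx2*, *Dtx3* and *Myc*, all of low level, also moved with the pseudocount.

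**Figure D5:**
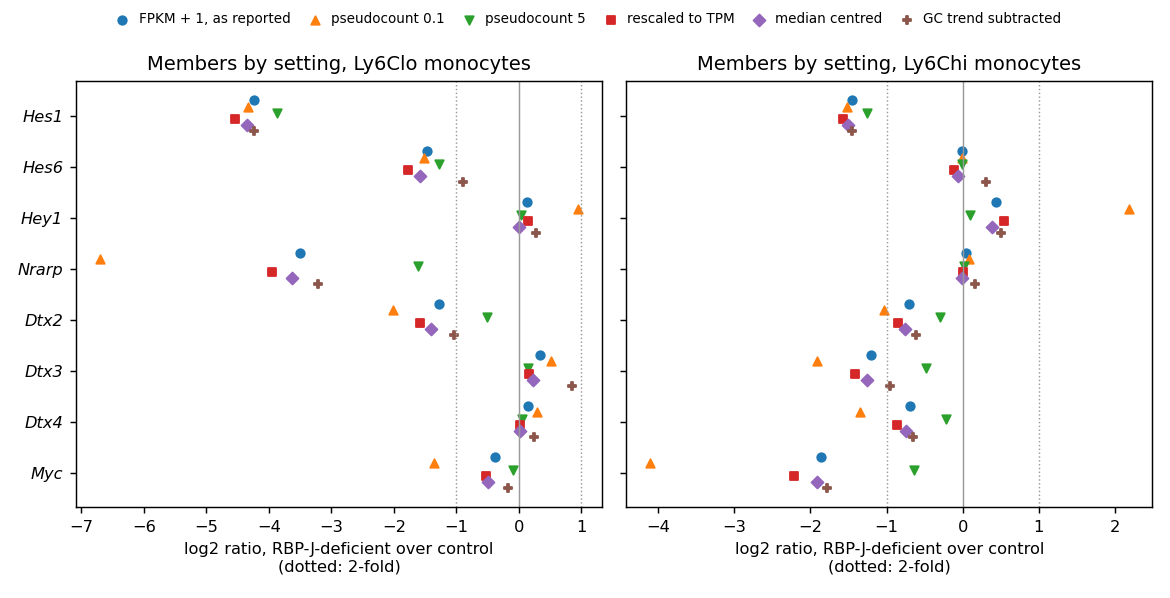
Log2 ratio of each member, RBP-J-deficient over control, under the reported setting and 5 others, in Ly6Clo (left) and Ly6Chi monocytes (right). Each symbol is 1 setting, and dotted lines mark 2-fold. The symbols of *Hes1* stay between -4.55 and -3.86 on the left, while those of *Nrarp* spread from -6.71 to -1.62.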

How the data were processed

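RNA from 4 sorted mouse blood monocyte populations was sequenced by the authors as paired-end libraries. The authors deposited FPKM values for each gene in each of the 6 pairs of libraries. The submitters' processing notes name CASAVA 1.8, TopHat2 2.1.0, Cufflinks 2.2.1 and the mm10 build, with no order or role. The table also holds the authors' own fold changes, test statistics and p-values, which were not used. Members had the same FPKM in every pair.

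Groups came from the sample titles. Log2 ratios of (FPKM + 1) were computed, and no test was made, since each group holds 1 library. Genes that reached an FPKM of 1 in any library counted as expressed. Named genes were the members, *Rbpj*, genes of the pathway lists past 2-fold or highest in their list, and the 5 genes nearest to *Hes1* with a mean FPKM of 5 or more, values above 0 in all libraries and no failed estimate. *H2-L*, the marker genes and *Notch1*, *Dtx3l* and *Actb* were named for context. The members and lists were chosen with earlier results of these data known.

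Alternatives were pseudocounts of 0.1 and 5, TPM, centring on the median ratio, and subtraction of a lowess trend (fraction 0.3, 3 iterations, 6086 genes of mean FPKM 5 or more) on GC content, taken from each gene's longest transcript in GENCODE M21 and found for 94.9% of expressed genes. Promoters came from RefSeq (GRCm38.p6); *Hes1*, *Hey1*, *Dtx3*, *Dtx4* and *Myc* had no entry used here. Proteins were not analysed here, and some named genes of the lists are not reported here. Depth is unknown, so no interval is given. The procedures were tested on simulated data. Python 3.11.15, numpy 2.4.6, pandas 2.3.3, statsmodels 0.14.6 and matplotlib 3.10.9 were used.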

Additional observations from a re-analysis of the deposited data

Results flagged for a closer look

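In 3 of the 8 members the log2 ratio of RBP-J-deficient over control had opposite signs in the subsets. The share of all expressed genes with opposite signs was not counted, so the number is a description and not a trait of the members. The median ratios of all expressed genes were 0.02 in Ly6Clo and 0.00 in Ly6Chi monocytes. In each case the difference was not tested, since each group holds 1 library. For *Nrarp* the ratio was -3.50 in Ly6Clo and 0.04 in Ly6Chi monocytes, a difference of -3.55. The Ly6Chi value turned to -0.01 with median centring, so its sign is not settled. For *Dtx3* the ratio was 0.34 in Ly6Clo and -1.21 in Ly6Chi monocytes, a difference of 1.55. For *Dtx4* it was 0.14 and -0.69, a difference of 0.83.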

How the results depend on the processing

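Of 80 member ratios under the 5 alternatives, 71 stayed on the same side of 2-fold, and no ratio past 2-fold changed sign. In Ly6Clo monocytes the *Hes6* ratio was -0.90 with the GC trend subtracted and the *Dtx2* ratio -0.51 with a pseudocount of 5, both inside 2-fold. In Ly6Chi monocytes a pseudocount of 5 gave -0.48 for *Dtx3* and -0.64 for *Myc*, and the GC correction gave -0.95 for *Dtx3*. A pseudocount of 0.1 moved 4 others past 2-fold, *Hey1* at 2.18 (against a control listed at 0, so no fold), *Dtx2* at -1.03 and *Dtx4* at -1.35 in Ly6Chi and *Myc* at -1.36 in Ly6Clo monocytes. The pseudocount enters these ratios by construction. Members at or under 0.2-fold in Ly6Clo monocytes numbered 2, or 1 with a pseudocount of 5 and 4 at 2-fold. In Ly6Chi monocytes they numbered 0, or 1 with a pseudocount of 0.1 (*Myc*) and 3 at 2-fold. The share of genes at or under 0.2-fold in Ly6Clo monocytes was 0.288% over the whole table. Rescaling to TPM moved the median ratio of all expressed genes to -0.22 in Ly6Clo monocytes. Of the genes nearest to *Hes1*, 4 of 5 were shared with a pseudocount of 0.1 and 4 of 5 with TPM, where the nearest was *Cd22*, a B cell marker, at a distance of 1.05. No paired analysis was possible because each group holds 1 library, and leaving out a library removes a group. Low FPKM and unknown depth limit *Hey1*, *Myc*, *Nrarp*, *Dtx2*, *Dtx3* and *Dtx4*.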
